A study of Mus musculus with 24 samples.

Results

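The comparison described here set the β cells of sons whose mothers had eaten a low-protein diet (LPD) against those of sons whose mothers had eaten a control diet (ND). It holds 8 of the 24 libraries of the series, 4 from LPD sons and 4 from ND sons, and these were taken by diet and sex from the names of the columns. Wild-type CD1 dams about 7 weeks old received the low-protein or the control diet for 2 weeks and were then mated to Ins1Apple males. Offspring of both groups ate control diet from birth, carried the genotype label Ins1Apple and were about 7 weeks old when their islets were dispersed and Apple-positive cells were sorted. The LPD and ND sons thus differed, per the labels, only in what the dam ate. The labels name no litter or dam, they do not say whether animals were pooled, and the structure of the Apple allele is not given in the sources used here.

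β cells of the pancreatic islet make and secrete insulin, and a large part of their RNA encodes it. A cell that folds this much protein relies on chaperones of the cytosol, the mitochondria and the endoplasmic reticulum, and many cytosolic and mitochondrial chaperone genes are switched on together by the transcription factor HSF1, which binds heat shock elements. Transcription factors such as Pdx1 and Mafa keep mature β cells in their secretory state. A shortage of amino acids or of folding capacity acts in part through the transcription factor ATF4, which binds composite elements upstream of its targets.

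The 8 libraries held 16656151 to 26375565 counts and 19160 to 25830 genes with at least 1 count. Levels are given as CPM, in which every library's counts are scaled to the same total, and 3 counts were worth 0.114 to 0.18 CPM. All 8 libraries had the counts of males, with at most 108 for Xist and at least 1028 for the Y-linked Ddx3y. A line of library numbers above the column names places all 8 of these columns in another diet group and 4 of them in the other sex, which their counts do not bear out for those 4. Groups were therefore taken from the column names, and the diets named below rest on them.

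The sorted cells carried the markers of β cells, and 3 libraries stood apart within their group. Insulin transcripts (Ins1 and Ins2) made up 17, 22.6, 17.3 and 11.3% of the counts in LPD sons 1 to 4, against 15.9, 16.4, 15.7 and 18.2% in ND sons 1 to 4. The groups averaged 17 ± 4.64% and 16.6 ± 1.16% (SD, n = 4 each), and the difference of 0.483 percentage points was smaller than the spread (exact 2-sided permutation test, p = 0.771, with 0.0286 the smallest p that 4 against 4 allows). LPD son 4 had the lowest share (95% Wilson interval 11.25 to 11.28%) and the lowest Ins2, at 2.03% of its counts against 8.25 to 11.2% in the other LPD sons, whereas its Ins1 share was 9.24%. The same library had 285 genes more than 2-fold outside the range of the other LPD sons, against 73, 4 and 1 such genes for LPD sons 2, 3 and 1. LPD son 2 had the fewest genes detected (19160) and the highest insulin share. LPD son 4 came next in genes detected (20278), against 23316 to 25830 in the other libraries. Genes with 1 to 9 counts made up 13.2% and 16% of those detected in LPD sons 2 and 4, against 28 to 31.9% in the other libraries. ND son 4 had the lowest summed level of acinar markers in its group (386 CPM, against 933 to 1040 CPM in the other ND sons). The plot of each library shows these values side by side.

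**Figure D1:**
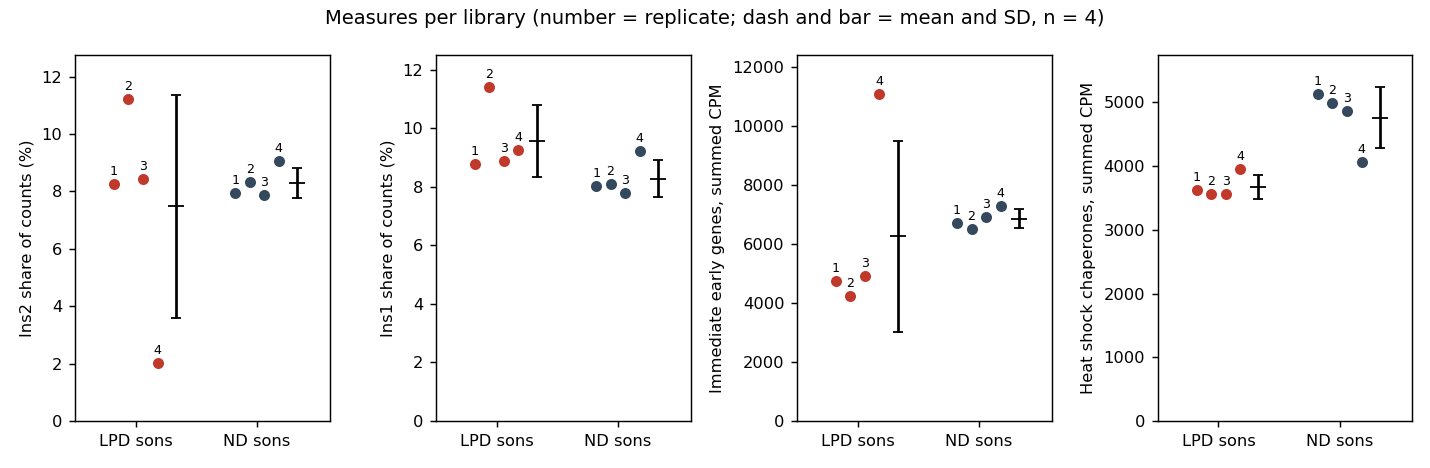
Share of counts from Ins2 and from Ins1 (percent) and summed level of the immediate early gene list and of the heat shock chaperone list (CPM of the library's own total), one point per library, LPD sons left and ND sons right. Dashes give the mean and error bars the SD of 4 libraries. LPD son 4 lies at 2.03% for Ins2 and at 11100 CPM for the immediate early genes, away from the other LPD sons, while the heat shock chaperones lie at 3560 to 3950 CPM in LPD sons and at 4070 to 5130 CPM in ND sons.

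Of 14791 genes tested, 176 (1.19%) differed between LPD and ND sons in edgeR's quasi-likelihood test at a Benjamini-Hochberg adjusted p below 0.05. In LPD sons 83 of them (0.561%) were higher and 93 (0.629%) lower, and 61 changed by more than 2-fold, 28 upward and 33 downward. For 174 of the 176 the 4 LPD and the 4 ND libraries did not overlap, which held for 5.3% (higher) and 5.65% (lower) of all genes tested. Under upper quartile scaling the split was 65 higher and 128 lower. Without LPD son 4 the call took in 2081 of 14592 genes (14.3%), among them 169 of the 176 in the same direction. For 1452 of these 2081 genes (69.8%) LPD son 4 lay nearer to the mean of the ND sons than to that of the other LPD sons. These genes were called without it. The like share, over the genes called without the library in question, was 20.2% for LPD son 2 and 22% for ND son 4. It was 4.62% for LPD son 1, 8.97% for LPD son 3 and 0% for ND sons 1, 2 and 3. The calls were fewer without other libraries, 32 without ND son 2, 49 without ND son 1, 55 without ND son 3, 65 without LPD son 1 and 78 without LPD son 3. Values are given below as CPM after TMM scaling, in the order LPD sons 1 to 4 and then ND sons 1 to 4, and fold changes as log2 of LPD over ND with their standard error (SE).

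Among the genes higher in LPD sons, Arhgap36, which encodes an inhibitor of protein kinase A, had the smallest p. Its level was 56.0, 64.7, 61.7 and 59.7 CPM in LPD sons, against 29.3, 28.9, 31.7 and 31.8 CPM in ND sons, a log2 change of 0.99 (SE 0.081, adjusted p = 0.000216 in edgeR's quasi-likelihood test). Each group was tight and the groups lay far apart. The gene spans 49463945 to 49500244 on chromosome X (GRCm38, as all positions here). Tmem130, a gene for a membrane protein on chromosome 5 (144735915 to 144761818), was at 137, 131, 145 and 158 CPM in LPD sons and at 75.7, 74.2, 74.7 and 78.2 CPM in ND sons. Its log2 change was 0.91 (adjusted p = 0.000243). Agt encodes angiotensinogen, the precursor of the angiotensin peptides, and lies on chromosome 8 (124556534 to 124569706). LPD sons had 62.0, 58.6, 58.5 and 58.5 CPM of Agt, against 32.8, 29.5, 33.9 and 33.2 CPM in ND sons (log2 change 0.88, adjusted p = 0.000268). All 3 genes kept their call without any one of the 8 libraries.

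Ddit4l, whose product inhibits the growth kinase complex mTORC1, was at 97.6, 110.3, 96.4 and 20.3 CPM in LPD sons and at 6.07, 6.04, 5.74 and 6.09 CPM in ND sons. The log2 change was 3.76 (SE 0.418, adjusted p = 0.00149). LPD son 4 was lower than its group here but still above every ND son, and without it the log2 change was 4.09. Pianp, which encodes a neuronal membrane protein, behaved alike in LPD son 4, with 49.6, 55.6, 54.3 and 9.25 CPM in LPD sons and 0.557, 0.536, 0.608 and 5.79 CPM in ND sons (log2 change 4.53, adjusted p = 0.0112). ND son 4 stood above its own group for this gene. Pianp lost its call without ND son 1, 2 or 3 (adjusted p 0.058 to 0.0608).

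Several receptors and kinases were also higher in LPD sons. Ntrk3, the receptor for neurotrophin-3, was at 7.08, 8.11, 9.01 and 3.58 CPM in LPD sons and at 1.62, 1.02, 1.22 and 0.806 CPM in ND sons (log2 change 2.57, adjusted p = 0.00338). Cntfr, the receptor subunit that binds ciliary neurotrophic factor, averaged 141 ± 26.8 CPM in LPD sons and 77.1 ± 5.01 CPM in ND sons (SD, n = 4 each). Eef1a2, a translation elongation factor of neurons and muscle (chromosome 2, 181147653 to 181157014), had a log2 change of 1.11 and lost its call without LPD son 1 or 3 or ND son 1, 2 or 3 (adjusted p 0.0549 to 0.0975). The kinase genes Speg and Dclk1 had log2 changes of 1.54 and 1.55, and Dclk1 lost its call without ND son 2 (adjusted p = 0.058) or ND son 3 (adjusted p = 0.059). The matrix protein gene Matn2 and the catenin-like Ctnnal1 had smaller ones, 0.67 and 0.64, with SDs of 5.78 CPM or less in either group for Matn2 (means of 64.8 and 40.9 CPM) and no overlap for either gene.

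**Figure D2:**
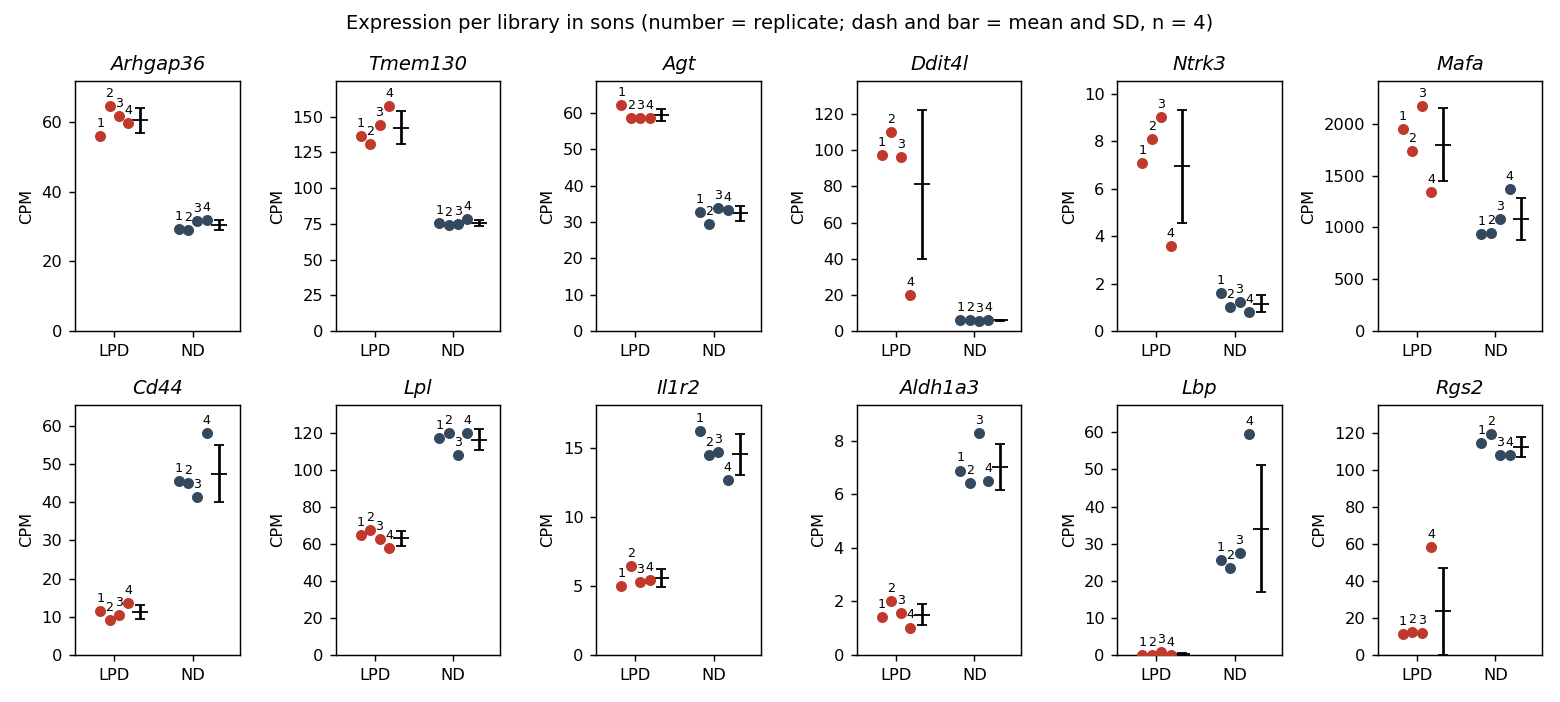
Level of 12 genes (CPM after TMM scaling, one panel per gene), one point per library with LPD sons left and ND sons right. Arhgap36, Tmem130, Agt, Ddit4l, Ntrk3 and Mafa were higher in LPD sons and Cd44, Lpl, Il1r2, Aldh1a3, Lbp and Rgs2 lower. Of the 12 only Mafa overlaps between the groups, with LPD son 4 at 1342 CPM and ND son 4 at 1374 CPM.

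Cd44 had the smallest p of all genes and was lower in LPD sons. It encodes the cell-surface receptor for hyaluronan and spans 102811141 to 102901665 on chromosome 2. Its level was 11.4, 9.16, 10.5 and 13.6 CPM in LPD sons, against 45.4, 44.9, 41.5 and 58.2 CPM in ND sons, a log2 change of -2.09 (SE 0.143, adjusted p = 8.88e-05). Itih1, a heavy chain of the inter-alpha-trypsin inhibitors that bind to hyaluronan, averaged 17.2 ± 2.79 CPM in LPD sons and 35.3 ± 2.36 CPM in ND sons (SD, n = 4 each). Lpl, lipoprotein lipase, which releases fatty acids from circulating triglyceride, was at 64.8, 67.4, 62.7 and 57.7 CPM in LPD sons and at 118, 120.1, 108 and 120.2 CPM in ND sons (log2 change -0.88, adjusted p = 0.000243). Il1r2, the decoy receptor for interleukin-1, was at 5.01, 6.46, 5.29 and 5.45 CPM in LPD sons, against 16.2, 14.5, 14.7 and 12.6 CPM in ND sons. These 4 genes showed no overlap and kept their call without any one library.

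Lbp, which encodes the lipopolysaccharide-binding protein, was near 0 in LPD sons. Its raw counts were 1, 0, 14 and 0 in LPD sons and 504, 482, 726 and 1181 in ND sons (chromosome 2, 158306493 to 158332852). The fitted log2 change of -7.47 rests on these few counts in LPD sons. ND son 4 had the highest level in its group (59.5 CPM, against 23.5 to 27.6 CPM in the other ND sons). The Slco1a6 gene, for an organic anion transporter, was lower in LPD sons by a log2 change of -1.18, the tRNA methyltransferase-like Trmt9b by -1 and the X-linked Xlr3b by -1.03.

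Aldh1a3, a retinaldehyde dehydrogenase that is known as a marker of dedifferentiated β cells, was lower in LPD sons. It was at 1.42, 2, 1.58 and 1.02 CPM in LPD sons and at 6.88, 6.43, 8.28 and 6.50 CPM in ND sons (log2 change -2.21, SE 0.243, adjusted p = 0.00138; chromosome 7, 66390890 to 66427517). Daughters averaged 0.612 CPM on LPD and 0.725 CPM on ND (scaled over 16 libraries), so that ND sons were the group that stood out. Aldh1a3 was the one call among 13 tested genes of the list on maturity and on genes that β cells normally keep off. The list's median log2 change was 0.044, against 0.016 over all genes tested. Mafa, a β-cell transcription factor that activates the insulin genes, was higher in LPD sons, with 1946, 1732, 2168 and 1342 CPM, against 940, 946, 1081 and 1374 CPM in ND sons (log2 change 0.73, adjusted p = 0.0465). LPD son 4 and ND son 4 overlapped. The call was lost without LPD son 1, 2 or 3 or ND son 1, 2 or 3 (adjusted p 0.072 to 0.202), and without LPD son 4 the adjusted p was 0.000499.

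Mafa was the only call among 26 tested β-cell transcription factors, whose median log2 change was -0.008. Pdx1, which also activates insulin genes, missed the threshold, with 364, 366, 380.0 and 289 CPM in LPD sons and 244, 243, 262 and 282 CPM in ND sons (log2 change 0.44, adjusted p = 0.0514). The groups did not overlap, and without LPD son 4 the adjusted p was 0.0003. Pax6 and Tcf7l2 had log2 changes of -0.40 and -0.56 (adjusted p = 0.0858 and 0.0801). Nkx6-1, the glucose transporter gene Slc2a2 and the maturity marker Ucn3 had log2 changes of 0.10, 0.09 and 0.09, none called. The zinc finger factors Myt1, Myt1l and St18 had -0.03, -0.19 and -0.06. Ins1 and Ins2 themselves had log2 changes of 0.21 and -0.13 (adjusted p = 0.391 and 0.9). Kcnj5, an inwardly rectifying potassium channel gene, had a log2 change of 1.09 (adjusted p = 0.219), with LPD son 4 at 3.86 CPM against 17.6 to 21.9 CPM in the other LPD sons and 4.18 to 9.41 CPM in ND sons.

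Some chaperone genes of the cytosol and the mitochondria were lower in LPD sons. Of 82 tested members of the lists of heat shock chaperones, HSP co-chaperones and DNAJ proteins, 8 were lower in LPD sons (of all genes tested, 0.629% were) and 1, Dnajc24, was higher. Dnajc24 (log2 change 0.48, adjusted p = 0.0192) lost its call without LPD son 1 or 3 or ND son 1, 2 or 3 (adjusted p 0.0634 to 0.107). These lists were drawn up with earlier results on these data known, so their counts are a description. The 8 were Hsp90aa1 and Hsp90ab1, the inducible and constitutive cytosolic HSP90, Hspd1 and Hspe1, which form the mitochondrial HSP60 and HSP10 chaperonin, the HSP90 co-chaperones Ahsa1 and Stip1, the HSP70 co-chaperone St13, and Dnaja4, an HSP40. A median log2 change of -0.268 over the 20 heat shock chaperones stood beside one of -0.094 over 25 co-chaperones and 0.005 over 37 DNAJ proteins.

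The bases upstream of these genes are shown because heat shock elements are where HSF1 binds. The letters searched were GAANNTTC and TTCNNGAA, each its own reverse complement, so both strands were covered, and matches may overlap. In the RefSeq promoter windows of GRCm38.p6 (250 bases before to 50 after each start) they occurred in 13.6% of the tested genes that have a window and in 17% of all genes. Of the 8 chaperone genes that were lower in LPD sons 5 had a window, and 3 of these (Hspd1, Hspe1 and Dnaja4) held a match while Ahsa1 and Stip1 had none. Hspd1 and Dnaja4 have 2 windows each, and the first window of each held 0 matches. Hspe1, Ahsa1 and Stip1 have 1 window each. Over the 3 lists 18 of 64 members with a window (28.1%) held one, and over the heat shock chaperones 8 of 15 (53.3%). Hspd1 and Hspe1 lie head to head on chromosome 1 and share the same run of 3 overlapping matches, the farthest of which begins 89 bases before the Hspe1 start. In Dnaja4 the matches begin 90 and 52 bases before the second start. Capitals mark the matches in the strand of the gene, 5′ to 3′, for Hspe1 (chr1:55088053-55088082, plus strand) and Dnaja4 (chr9:54699414-54699518, plus strand).
Hspe1: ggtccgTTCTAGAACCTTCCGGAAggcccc
Dnaja4: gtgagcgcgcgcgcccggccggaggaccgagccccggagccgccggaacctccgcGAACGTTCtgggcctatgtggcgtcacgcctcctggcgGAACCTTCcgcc

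Hsp90ab1, at 45567775 to 45573271 on chromosome 17, was at 1021, 989.8, 1001 and 1074 CPM in LPD sons, against 1428, 1460.0, 1510.0 and 1326 CPM in ND sons (log2 change -0.49, SE 0.071, adjusted p = 0.00758). Hsp90aa1 was at 251, 278, 250 and 304 CPM in LPD sons and at 461, 447, 418 and 357 CPM in ND sons (log2 change -0.64, adjusted p = 0.00929; chromosome 12, 110690605 to 110702728). In both, LPD son 4 was the highest of its group and ND son 4 the lowest of its own, and the groups did not overlap. Ahsa1, which stimulates the ATPase of HSP90, had 50.0, 52.8, 46.9 and 47.7 CPM in LPD sons and 79.9, 75.2, 71.5 and 69.0 CPM in ND sons. Its log2 change of -0.58 (adjusted p = 0.00469) kept its call without any one library. Stip1, which hands clients from HSP70 to HSP90, averaged 76.4 ± 5.70 CPM in LPD sons and 111 ± 5.85 CPM in ND sons, and St13 averaged 146 ± 8.87 and 191 ± 7.95 CPM (SD, n = 4 each).

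Hspd1 was at 116, 114, 117 and 111 CPM in LPD sons, against 160.1, 172, 156 and 150.3 CPM in ND sons (log2 change -0.48, adjusted p = 0.00799). Its neighbour Hspe1 was at 49.3, 46.9, 47.0 and 42.9 CPM in LPD sons and at 64.5, 70.2, 60.9 and 55.6 CPM in ND sons (log2 change -0.43, adjusted p = 0.0416). LPD son 4 was the lowest library for each, and neither gene overlapped between the groups. Dnaja4 was at 89.9, 76.9, 84.6 and 99.8 CPM in LPD sons and at 149, 151, 151 and 115 CPM in ND sons (log2 change -0.69, adjusted p = 0.0101). ND son 4 lay well below the other ND sons for Dnaja4. Several of these genes have pseudogenes, and how the counting treated reads that match more than 1 place is not given in the sources used here.

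Of the 8 chaperone genes only Ahsa1 kept its call without ND son 2, in a fit that called 32 genes in all. The other 7 had adjusted p of 0.0516 to 0.189 in that fit, and the log2 change of Hsp90ab1 in it was -0.479. All 8 kept their call without LPD son 4 or without ND son 4. Hspe1 also lost its call without LPD son 1, 2 or 3 or ND son 1 or 3 (adjusted p 0.0609 to 0.169), and St13 without LPD son 1 or 3 or ND son 1 or 3 (0.066 to 0.135). Hsp90aa1 lost it without LPD son 1 (0.0507) or ND son 1 (0.0505), and Dnaja4 without ND son 1 (0.0524) or ND son 3 (0.0556). Leaving out LPD son 4 added 5 more heat shock chaperones to the calls at lower levels (9 of 20 in all, with 1 higher), in a fit that called 7.35% of all genes lower and 6.91% higher. Among the members that did not pass with all 8 libraries, Hsph1, an HSP110 that exchanges the nucleotide of HSP70, was at 250, 237, 247 and 451 CPM in LPD sons and at 534, 532, 496 and 383 CPM in ND sons. Its log2 change was -0.72 (adjusted p = 0.0902), and without LPD son 4 it was -0.99 (adjusted p = 4.41e-05). Hspa8, the constitutive HSP70, and Dnajb1, its HSP40 partner, had log2 changes of -0.37 and -0.38 (adjusted p = 0.0902 for each, and 0.00154 and 0.0138 without LPD son 4). Hsph1, Hspa8 and Dnajb1 were picked for naming after their values were seen. The stress-inducible Hspa1a and Hspa1b had log2 changes of 0.12 and -0.10 (adjusted p = 0.793 and 0.857).

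**Figure D3:**
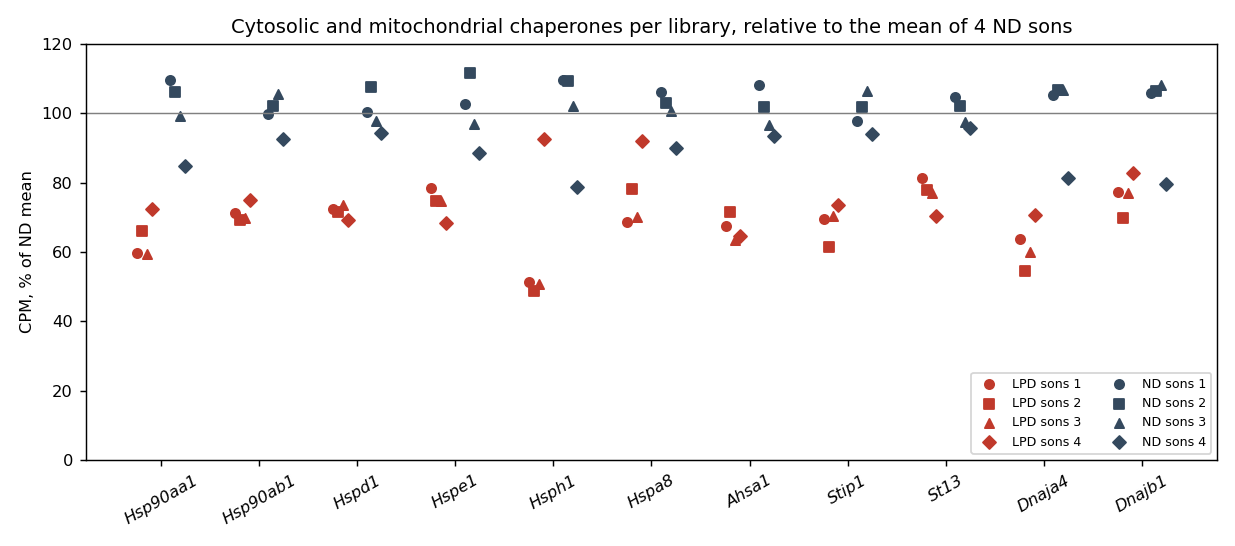
Level of 11 chaperone and co-chaperone genes in each library as a percentage of the mean CPM of the 4 ND sons, which lies at 100 by construction, with LPD sons left of ND sons for each gene. LPD sons lie below ND sons without overlap for Hsp90aa1, Hsp90ab1, Hspd1, Hspe1, Ahsa1, Stip1, St13 and Dnaja4, and LPD son 4 lies among the ND sons for Hsph1, Hspa8 and Dnajb1.

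The other protein-folding lists held 1 call. None of 34 tested chaperones of the endoplasmic reticulum and none of 14 chaperonin and prefoldin genes was called, with median log2 changes of -0.025 and 0.034. Of 29 genes of the unfolded protein response and of the degradation of endoplasmic reticulum proteins, only Herpud1, which helps to remove misfolded proteins, was lower, at 162, 178, 159 and 190.2 CPM in LPD sons against 234, 228, 224 and 212 CPM in ND sons (log2 change -0.38, adjusted p = 0.0436). That call held only without LPD son 4 among the 8 leave-outs, with adjusted p of 0.0557 to 0.187 in the other 7.

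The targets of ATF4 leaned downward with a single call among 29 tested (of all genes tested, 0.629% were called lower). Chac1, which degrades glutathione and is induced through ATF4, was at 9.87, 10.1, 8.87 and 9.59 CPM in LPD sons, against 23.6, 24.1, 22.0 and 13.9 CPM in ND sons (log2 change -1.12, SE 0.166, adjusted p = 0.00799). LPD sons were close together, and ND son 4 was the lowest of its group. Without ND son 2 the adjusted p was 0.0565. The log2 change was below 0 for 26 of the 29 tested targets (median -0.204, against 0.016 over all genes tested). Asns, asparagine synthetase, Ddit4, an inhibitor of mTORC1, and Eif4ebp1, which restrains translation, had log2 changes of -0.38, -0.50 and -0.61 (adjusted p 0.087 to 0.0917, not called), and Atf4 itself -0.20 (adjusted p = 0.373). Without LPD son 4, 9 targets were called lower (7.35% of all genes were) and 1 higher (6.91% of all genes). Of 23 cytosolic tRNA synthetases only Cars, for cysteine, was called, at 44.4, 41.4, 48.0 and 47.1 CPM in LPD sons and 73.9, 77.2, 72.3 and 59.2 CPM in ND sons (log2 change -0.64, adjusted p = 0.00799), and it missed the threshold without ND son 2 (adjusted p = 0.0552).

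The composite element that ATF4 binds was searched as TGATGNAA and, for the other strand, TTNCATCA. It occurred in the windows of 9 of 26 ATF4 targets (34.6%), 5 of 15 tRNA synthetases (33.3%) and 2.69% of all tested genes with a window. In Chac1, the called target, the match begins 193 bases before the start and is shown in capitals in the stretch chr2:119351042-119351221 (plus strand, 5′ to 3′).
Chac1: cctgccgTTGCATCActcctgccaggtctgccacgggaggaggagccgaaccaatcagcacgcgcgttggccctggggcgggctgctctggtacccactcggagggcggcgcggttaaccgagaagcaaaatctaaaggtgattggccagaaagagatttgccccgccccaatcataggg

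Rgs2, a GTPase-activating protein that damps Gq signalling, was at 11.2, 12.5, 11.7 and 58.6 CPM in LPD sons, against 115, 119, 108 and 108 CPM in ND sons. LPD sons 1 to 3 lay close together, and LPD son 4 lay between them and the ND sons. The log2 change was -2.27 (SE 0.459, adjusted p = 0.0385), and -3.25 (adjusted p = 4.22e-11) without LPD son 4. The call was lost without any other single library (adjusted p 0.0792 to 0.126).

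LPD son 4 also stood apart from the other LPD sons in the immediate early genes, which respond within minutes to hours. Of 35 tested immediate early genes none was called with all 8 libraries and 24 had a log2 change below 0 (median -0.22, against 0.016 over all genes tested). Their summed level was 4760, 4250, 4930 and 11100 CPM in LPD sons and 6710, 6520, 6910 and 7280 CPM in ND sons. Without LPD son 4, 22 of the 35 were called lower (background 7.35%) and 1 higher (background 6.91%). Myc, a growth-promoting transcription factor, was at 3.64, 3.40, 3.25 and 10.8 CPM in LPD sons and at 12.4, 11.3, 12.5 and 13.8 CPM in ND sons (log2 change -1.26, adjusted p = 0.0898, and 5.97e-06 without LPD son 4). Klf4, Dusp6 and Nr4a2 had log2 changes of -0.61, -0.66 and -0.66 with all 8 libraries (adjusted p 0.056 to 0.151) and of -0.81, -0.67 and -0.94 without LPD son 4 (adjusted p 8.32e-05 to 0.0112).

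Clock genes were summed at 952, 904, 940 and 1480 CPM in LPD sons and at 1240, 1180, 1190 and 1090 CPM in ND sons. None of the 22 tested was called with all 8 libraries, and 7 were called lower (background 7.35%) and 2 higher (background 6.91%) without LPD son 4. Cry2, a repressor of the clock, was at 97.0, 84.2, 96.4 and 215 CPM in LPD sons and at 202, 198, 198 and 176 CPM in ND sons (log2 change -0.65, adjusted p = 0.213, and 2.76e-06 without LPD son 4). Nr1d1, another repressor, was at 24.3, 24.3, 25.7 and 48.8 CPM in LPD sons and at 49.5, 46.0, 49.4 and 37.2 CPM in ND sons. In both genes LPD son 4 lay with or beyond the ND sons. The E-box CACGTG, its own reverse complement, occurred in the windows of 5 of 18 clock genes (27.8%) and of 11.7% of tested genes.

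Genes of lipid synthesis leaned upward. Of 28 tested genes of cholesterol synthesis and its control 27 had a log2 change above 0 (median 0.217, against 0.016 over all genes tested). None was called. Without LPD son 4, 10 were called higher and none lower, beside a background of 6.91% higher. Hsd17b7, an enzyme of the pathway, was at 9.21, 8.76, 9.15 and 6.75 CPM in LPD sons and at 4.91, 5.55, 4.79 and 5.14 CPM in ND sons (log2 change 0.73, adjusted p = 0.0536). Srebf2, the transcription factor that drives the pathway, had a log2 change of 0.41 (adjusted p = 0.0755). LPD son 4 was the lowest LPD library for both genes. In the list of fatty acid synthesis and oxidation 24 of 32 tested genes had a log2 change above 0 and 8 below (median 0.145), with 0 called. There, Acly, which makes cytosolic acetyl-CoA, and Fasn, fatty acid synthase, had log2 changes of 0.32 and 0.48 (adjusted p = 0.108 and 0.14). Elovl6 went the other way, with a log2 change of -0.36 (adjusted p = 0.115) and no overlap between the groups. Fh1, fumarate hydratase of the citrate cycle, was the one call among 46 genes of glycolysis and the citrate cycle, at 99.0, 125, 104 and 116 CPM in LPD sons and 72.1, 67.3, 65.6 and 83.8 CPM in ND sons (log2 change 0.62, adjusted p = 0.0113). It lost the call without ND son 1, 2 or 3 (adjusted p 0.0609 to 0.0703).

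**Figure D4:**
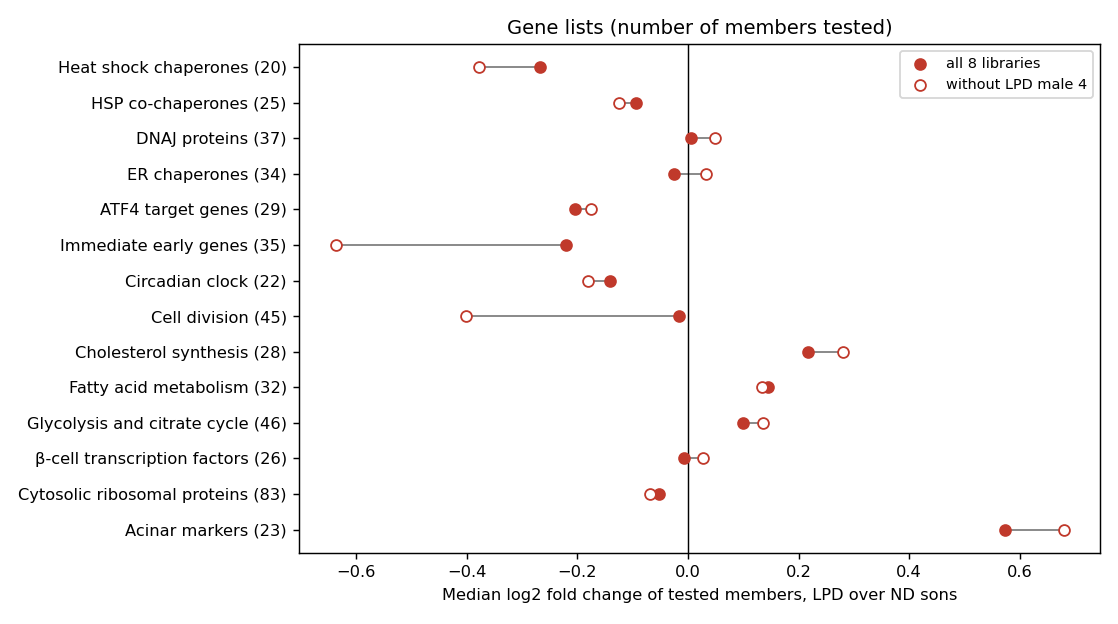
Median log2 change (LPD over ND sons) of the tested members of 14 gene lists, with all 8 libraries and without LPD son 4. The heat shock chaperones lie at -0.268 and -0.378, the immediate early genes at -0.22 and -0.637, and cholesterol synthesis at 0.217 and 0.28.

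Calls in the remaining lists were few, and of all genes tested 0.561% were called higher and 0.629% lower. Of 83 cytosolic ribosomal protein genes 1 was called higher and 1 lower, and 54 had a log2 change below 0 (median -0.053). The one called higher was Rpl35a (39.7 ± 7.51 CPM in LPD sons and 24 ± 2.93 CPM in ND sons, SD, n = 4 each), and this family has many pseudogenes. Rpl35a lies beside Iqcg on chromosome 16 (Iqcg 33012683 to 33056218, Rpl35a 33056453 to 33060189), and Iqcg, a gene for a protein of cilia, was higher as well (11.4, 11.9, 13.3 and 2.55 CPM in LPD sons against 1.77, 1.85, 2.32 and 1.36 CPM in ND sons). Of 25 genes of MHC class I and the interferon response H2-T23, a non-classical class I molecule, and Rsad2, an antiviral enzyme, were higher (log2 changes 1.74 and 2.94). The list's median log2 change was 0.13 with all 8 libraries and -0.019 without LPD son 4. H2-T23 was at 10.9, 9.91, 13.7 and 3.86 CPM in LPD sons and 2.78, 2.58, 2.81 and 3.27 CPM in ND sons. Rsad2 had raw counts of 38, 56, 42 and 97 in LPD sons and 11, 7, 7 and 8 in ND sons. The calls on Rpl35a, Iqcg, H2-T23 and Rsad2 were each lost without 1 or more of the 8 libraries, at adjusted p of up to 0.131. None of the 45 cell division genes, 78 nuclear genes of oxidative phosphorylation, 77 mitochondrial ribosomal proteins or 44 proteasome genes was called.

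Some of the steepest changes were in pseudogenes and related sequences, whose counts can depend on how reads shared with a parent gene were placed. Gm10020, a processed pseudogene on chromosome 15, had 63, 39, 69 and 93 counts in LPD sons and 1, 0, 0 and 0 in ND sons. An identifier of 1700030C10Rik on chromosome 12 (ENSMUSG00000091071.2) had 53, 78, 42 and 30 counts in LPD sons and 0 in all 4 ND sons, which is at least 72.6-fold higher with 3 counts over the ND group as the floor. Tpm3-rs7, a tropomyosin-related sequence, had 9, 5, 5 and 23 counts in LPD sons and 125, 131, 161 and 119 in ND sons. Gm10320, which is annotated as protein-coding and not as a pseudogene, had 13, 17, 6 and 7 counts in LPD sons and 141, 166, 173 and 91 in ND sons. For each of these genes every LPD library lay on one side of every ND library.

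RNA of other pancreatic cells was present and differed between libraries. In bulk samples fewer cells of a type and less RNA per cell cannot be told apart. Of the 23 tested acinar markers 22 had a log2 change above 0 (median 0.574, against 0.016 over all genes tested). None of the markers was called with all 8 libraries, whereas 6 were called higher without LPD son 4 (background 6.91%). Their summed level was 847 to 1320 CPM in LPD sons and 386 to 1040 CPM in ND sons. Summed pancreatic polypeptide and epsilon-cell markers were 518 to 556 CPM in LPD sons and 218 to 451 CPM in ND sons, alpha-cell markers 1430 to 1800 and 1420 to 1900 CPM, delta-cell markers 352 to 505 and 297 to 572 CPM, and duct markers 353 to 436 and 353 to 368 CPM. Spp1, osteopontin, which is in the duct list, was called higher (7.82 ± 0.480 CPM in LPD sons, 4.60 ± 0.534 CPM in ND sons, SD, n = 4 each), and lost the call without any library but LPD son 4 (adjusted p 0.0571 to 0.182). Endothelial (8.54 to 12.8 and 5.35 to 8.64 CPM), stromal (2.03 to 3.72 and 2.48 to 5.46 CPM), immune (26.5 to 34.9 and 29.4 to 30 CPM) and red blood cell markers (4.5 to 7.74 and 4.97 to 6.98 CPM) were low in LPD and in ND sons, with Cd3e and Hbb-bt at 0 in all 8 libraries.

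The hepatocyte list was lower in LPD sons (460 to 582 CPM against 679 to 706 CPM), and 10 of its 21 genes were at 0 in all 8 libraries. Most of that sum was Ttr, transthyretin, which islet endocrine cells also make and which is in the alpha-cell list. Ttr was at 447, 493, 467 and 526 CPM in LPD sons and at 640, 683, 675 and 729 CPM in ND sons (log2 change -0.50, adjusted p = 0.0093). It was the one called alpha-cell marker of 7 tested and was lost without LPD son 1 (adjusted p = 0.0564) or ND son 2 (adjusted p = 0.058). The part of cell admixture in Ttr, Spp1 and Lbp was not tested.

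Daughters of the same diets allowed a test of whether the LPD effect differed by sex. Over 16 libraries and 15906 genes, 23 (0.145%) had an LPD effect that differed between sons and daughters in edgeR's quasi-likelihood interaction test, 11 (0.0692%) with a higher log2 change in sons and 12 (0.0754%) with a lower one. In daughters alone 441 genes (2.77%) were called. Rars, the arginyl-tRNA synthetase, had the smallest p, with 42.5, 42.1, 45.6 and 41.2 CPM in LPD sons, against 40.2, 39.9, 39.4 and 40.6 CPM in ND sons, and with 34.9, 33, 27.6 and 35.3 CPM in LPD daughters, against 50.7, 57.5, 63.2 and 59.9 CPM in ND daughters. The log2 changes were 0.10 in sons and -0.82 in daughters (difference 0.92, SE 0.129, adjusted p = 0.0102). LPD daughters lay below every ND daughter, and in sons the log2 change was not called (adjusted p = 0.578).

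Nars, the asparaginyl-tRNA synthetase, Nt5dc3 and Creb3, a transcription factor held in the endoplasmic reticulum membrane, followed the same pattern, with log2 changes of -0.04, 0.05 and 0.13 in sons and -0.72, -1.01 and -0.61 in daughters (adjusted p = 0.0381 each). Cdkn1a, the cell cycle inhibitor p21, had log2 changes of opposite sign, with 22.7, 18.3, 21.6 and 25.7 CPM in LPD sons against 35.0, 28.1, 29.4 and 31.8 CPM in ND sons, and 25.9, 26.8, 27.2 and 20.8 CPM in LPD daughters against 19.5, 17.6, 14.0 and 16.6 CPM in ND daughters. Its log2 change was -0.50 in sons, where it was not called (adjusted p = 0.0638), and 0.57 in daughters (adjusted p of the difference = 0.0381), and neither pair of groups overlapped. Ric8b, a chaperone of G protein subunits, had -0.27 in sons (not called, adjusted p = 0.106) and 0.34 in daughters.

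Among the genes called in sons, the DNAJ protein gene Dnajc24 was higher in LPD sons (51.9, 48.1, 50.0 and 47.1 CPM, against 33.5, 35.1, 33.1 and 39.7 CPM in ND sons), with a log2 change of -0.30 in daughters (adjusted p of the difference = 0.0398). Rpl35a had log2 changes of 0.73 in sons and -0.28 in daughters (adjusted p = 0.0444). Tpm3-rs7 was 1.34 CPM or less in all LPD sons and at least 6.20 CPM in all ND sons, against 0.401 to 1.86 CPM in LPD daughters and 0.362 to 1.75 CPM in ND daughters, so that ND sons were the group that stood out. The difference was not called for Cd44 (-2.09 in sons, -0.21 in daughters, adjusted p = 0.115), Aldh1a3 (-2.21 and -0.37, adjusted p = 0.152), Ntrk3 (2.57 and 0.10, adjusted p = 0.289) or Hsp90ab1 (-0.49 and -0.19, adjusted p = 0.533). ND daughter 4 stood apart for several of these genes. Ntrk3 was at 6.22, 7.35, 8.95 and 5.97 CPM in LPD daughters and at 1.40, 1.57, 1.22 and 22.2 CPM in ND daughters, and the difference between the sexes was 0.24 on the log2 scale without ND daughter 4 (adjusted p = 0.867), against 2.48 with it. Cd44 was at 23, 25, 19.3 and 9.57 CPM in LPD daughters and at 30.9, 24.5, 28.6 and 5.24 CPM in ND daughters, and without ND daughter 4 its difference of -1.54 was called (adjusted p = 0.0382). For Arhgap36 the difference was -0.32 with all 16 libraries (adjusted p = 0.786) and -0.90 without ND daughter 4 (adjusted p = 0.0256). Agt (0.88 in sons, 1.12 in daughters), Arhgap36 (0.99 and 1.31), Hspd1 (-0.48 and -0.67), Dnaja4 (-0.69 and -0.63) and Chac1 (-1.12 and -1.03) were called in each sex and in the same direction. So were, among others, Lbp (-7.47 and -5.71), Ddit4l (3.76 and 2.62), Tmem130 (0.91 and 0.82), Cntfr (0.87 and 0.65), Hspe1 (-0.43 and -1) and St13 (-0.38 and -0.37). The daughters overlapped for Lbp, Ddit4l, Tmem130, Cntfr, St13 and Dnaja4, with ND daughter 4 inside the range of the LPD daughters. Lbp was at 40.1, 26.2, 34.5 and 0.556 CPM in ND daughters. Ddit4l was at 8.16, 11.4, 54.9 and 108 CPM in LPD daughters and at 6.02, 7.08, 5.7 and 10.8 CPM in ND daughters. The 23 calls on the difference fell to 0 without ND son 3, to 1 without LPD son 1 or 2, ND son 1 or 2, LPD daughter 1, 2 or 3 or ND daughter 3, to 3 without LPD son 3, to 15 without ND son 4 and to 12 without ND daughter 1. They were 356 without LPD son 4, 55 without LPD daughter 4 and 43 without ND daughter 4.

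**Figure D5:**
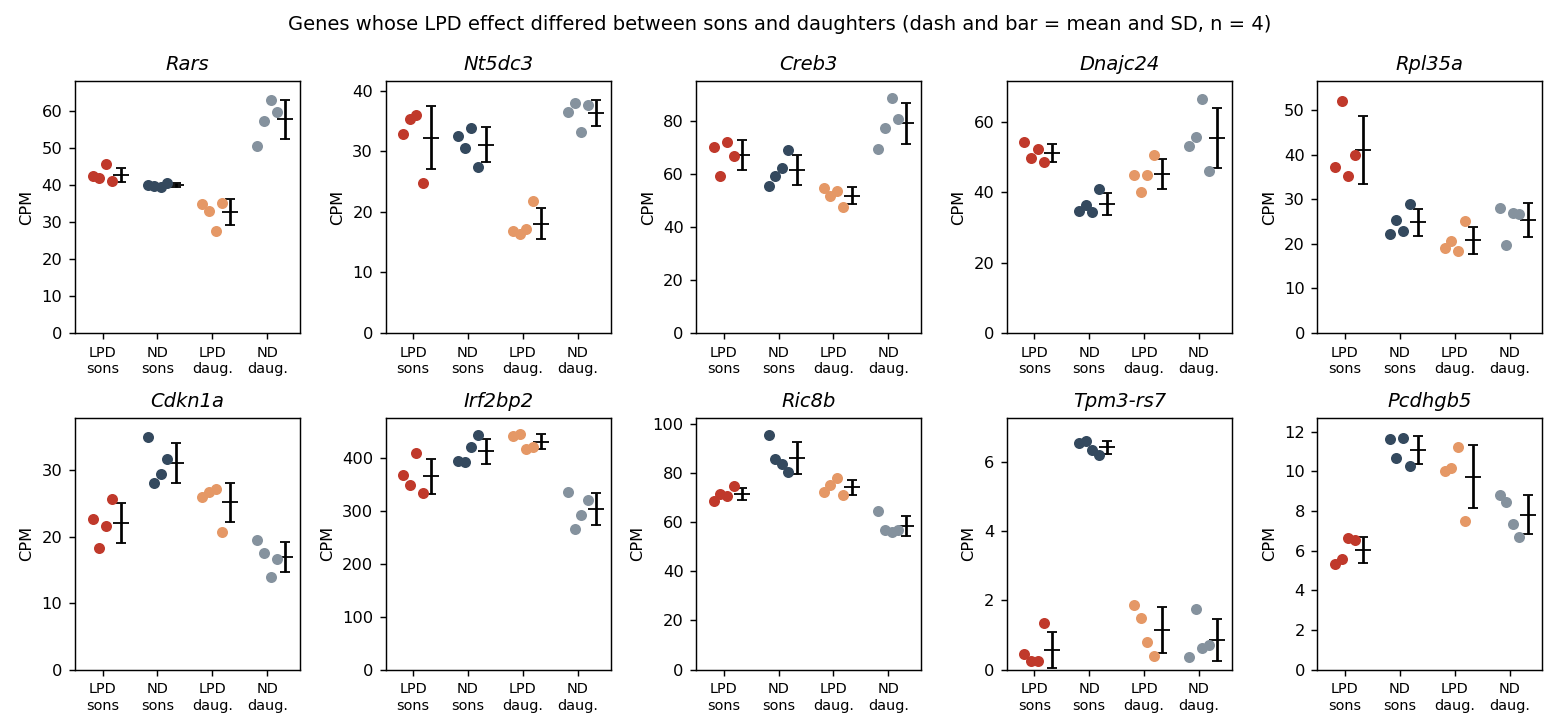
Level of 10 genes whose LPD effect differed between sons and daughters (CPM after TMM scaling of the 16 libraries), one point per library, in the order LPD sons, ND sons, LPD daughters and ND daughters. For Rars the 8 libraries of sons lie between 39.4 and 45.6 CPM, while LPD daughters lie at 27.6 to 35.3 CPM and ND daughters at 50.7 to 63.2 CPM.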

How the data were processed

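The authors supplied 2 tables for the series. The deposited counts per gene carry no normalisation, and the deposited FPKM are these counts over gene length and library total, which a recalculation matched to within 0.0005. RNA was depleted of ribosomal RNA and sequenced strand-specifically. The submitters' notes list cutadapt 2.10, STAR 2.7.8a, DESeq2 and HOMER without roles, and build GRCm38.p6. Which counter, annotation and strand option were used is not given in the sources used here. Minimum RNA integrity numbers differ, at 9.4 in the series' design text and 8.1 in the extraction protocol.

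The 8 count columns of LPD and ND sons were fitted alone in edgeR 4.0.16 (R 4.3.3, limma 3.58.1). Genes with a CPM of at least 1 in at least 4 libraries were kept, scaled with TMM and compared by quasi-likelihood F tests (common dispersion 0.0323, prior degrees of freedom 5.87), with Benjamini-Hochberg adjustment at 0.05. The fit was tested on simulated data with known log2 changes. It called 29 of 67 genes changed by 0.585, 54 of 67 changed by 1 and 66 of 66 changed by 2, with 5 false calls. Simulated libraries of a group were drawn alike, so this test does not cover a library that stands apart within its group. Sons were set against daughters by the diet by sex interaction over 16 libraries. Sums over markers and lists used each library's total without TMM. Intervals and floors cover counting error only. No replicates were duplicates of one library. P-values measure the spread between these samples, which the labels do not tie to separate animals or litters. The main fit did not pair samples by replicate number (correlations of -0.085 to 0.118 between same-numbered libraries), and the labels do not say what the numbers mean.

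The text names, among called genes without overlap, the 15 with the smallest p in each direction and the 8 with the largest fold in each direction at a mean of at least 5 CPM in the higher group, every called chaperone, up to 4 members of each other list by p, and a fixed set of β-cell genes. For the interaction, the 5 with the smallest p in each direction were named, except that Gm37517 was left out. Atp5j2, the next by p among those higher in sons, was named as well. Dnajc24, Tpm3-rs7 and Rpl35a were added because they were called in both comparisons. Some of these are given only in counts, and some are not reported here. Members and lists were chosen with earlier results of these data known. Alternatives were other scalings, filters, tests (DESeq2 1.42.0, limma), FPKM with pseudocounts of 1 and 0.1, a replicate block, all 24 libraries, the library numbers and each library left out. Promoter windows are RefSeq's for GRCm38.p6.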

Additional observations from a re-analysis of the deposited data

Results flagged for a closer look

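Of 237 groups of 4 libraries examined (a gene or a list in LPD or in ND sons), 28 had 1 library whose gap to the nearest of the others took up most of the group's range, past Dixon's critical value for 4 samples. Chance flags about 1 in 20 independent groups. These groups share the same libraries and many of their genes were chosen by their values, so the 28 cannot be set against that rate. The library apart was ND son 4 in 12 of the 28 and LPD son 4 in 10.

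LPD son 4 had 20.3 CPM of Ddit4l (other LPD sons 96.4 to 110 CPM), 9.25 CPM of Pianp (49.6 to 55.6 CPM), 58.6 CPM of Rgs2 (11.2 to 12.5 CPM) and 10.8 CPM of Myc (3.25 to 3.64 CPM). It had 451 CPM of Hsph1 (237 to 250 CPM), 48.8 CPM of Nr1d1 (24.3 to 25.7 CPM) and 215 CPM of Cry2 (84.2 to 97 CPM). Its summed clock genes were 1480 CPM (904 to 952 CPM), its immediate early genes 11100 CPM (4250 to 4930 CPM) and its endothelial markers 12.8 CPM (8.54 to 8.92 CPM). LPD son 1 had 62 CPM of Agt (58.5 to 58.6 CPM), LPD son 2 had 118000 CPM of Ins1 (87400 to 91800 CPM), and LPD son 3 had 0.65 CPM of Lbp (0 to 0.0472 CPM).

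ND son 4 had 59.5 CPM of Lbp (other ND sons 23.5 to 27.6 CPM), 18.8 CPM of Trmt9b (23.1 to 23.7 CPM), 115 CPM of Dnaja4 (149 to 151 CPM), 413 CPM of Dnajb1 (549 to 562 CPM), 5.79 CPM of Pianp (0.536 to 0.608 CPM) and 11.1 CPM of Rpsa-ps10 (1.72 to 2.19 CPM). It had 440 CPM of Pax6 (491 to 498 CPM), 176 CPM of Cry2 (198 to 202 CPM) and 97000 CPM of Ins1 (77400 to 80100 CPM). Its summed markers were 297 CPM for delta cells (525 to 572 CPM), 218 CPM for pancreatic polypeptide and epsilon cells (421 to 451 CPM) and 386 CPM for acinar cells (933 to 1040 CPM). ND son 1 had 0.0506 CPM of Gm10020 and 0.101 CPM of the other identifier of 1700030C10Rik (ENSMUSG00000099759.1), each at 0 in the other ND sons, and ND son 3 had 5.74 CPM of Ddit4l (6.04 to 6.09 CPM).

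The LPD effect differed between sons and daughters in the interaction test, in log2 units of sons minus daughters, by 0.922 for Rars, 1.061 for Nt5dc3, 0.679 for Nars, 0.736 for Creb3, 0.894 for Atp5j2, 4.031 for Rpsa-ps10, 0.784 for Dnajc24 and 1.012 for Rpl35a. It differed by -1.067 for Cdkn1a, -0.679 for Irf2bp2, -0.613 for Ric8b, -1.192 for Pcdhgb5 and -3.906 for Tpm3-rs7.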

How the results depend on the processing

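The count of 176 genes in sons was 145 to 193 under other scalings, filterByExpr, the robust fit, a minimum of 5 CPM and log2(FPKM + 1), and none of the 176 changed sign under any alternative other than the match by library numbers, for which signs were not compared. It was 811 with DESeq2's Wald test, 3899 with limma-voom and quality weights, 426 with no filter beyond 1 count, 116 with log2(FPKM + 0.1) and 35 with all 24 libraries in 1 fit, whose groups share 1 spread. By the library numbers it was 930. That match puts females in the LPD son columns, so named genes were not run under it. Leaving out 1 library gave 32 to 2081. LPD sons 2 and 4 left out together, an alternative chosen after seeing the data, gave 3158, with 166 of the 176 among them. Of 57 named called genes, 18 kept their call with all 24 libraries and 43 with the replicate block.

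With the replicate number as a block 87 genes were called in sons and 0 for the difference between the sexes. Deviations of same-numbered libraries were hardly correlated over all genes (-0.085 to 0.118). Such values cannot show whether equal numbers mark a shared litter or day, which the labels do not give.

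The 23 calls on that difference became 238 with DESeq2, 1234 with limma-voom, 12 and 2 with log2(FPKM + 1) and log2(FPKM + 0.1), 3 with library totals alone, 1 with all 24 libraries, 284 without LPD sons 2 and 4, and 0 to 356 with 1 library left out. The insulin share difference of 0.483 percentage points ranged from -1.372 (without LPD son 2, reversed) to 2.411 (without LPD son 4) with 1 library left out. Levels under 0.114 to 0.18 CPM, worth 3 counts, could not be told from 0 at this depth.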
